A study of Homo sapiens with 3 samples.

Results

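The transcripts of 10 chemokine genes were followed in T24 cells, a human bladder carcinoma line, across the 3 RNA-seq libraries of the study. The genes were CXCL1, CXCL2, CXCL3, CXCL5, CXCL6, CXCL8, CXCL16, CCL2, CCL20 and CX3CL1, taken by symbol from the 58381 genes of the deposited count table, where all 10 were found. The study asked how loss of HDAC6, a mainly cytoplasmic deacetylase of tubulin and other proteins, changes irradiated bladder cancer cells. The Ctrl library came from T24 cells without irradiation, the RT library from irradiated control cells, and the RT + shHDAC6 library from irradiated cells carrying a lentiviral shRNA against HDAC6. The labels name pLKO.1 as the control vector, puromycin as the selection for infected cells and 10 Gray as the radiation dose. The control is also tagged Empty, while the study's text calls the irradiated comparator parental cells, so whether Ctrl and RT carried a vector and were selected is not settled, and the shRNA and the infection cannot be told apart in RT + shHDAC6 against RT. The time between irradiation and harvest is not given in the sources used here, and shHDAC6 cells without irradiation were not analysed here. Each condition had 1 library of 1 cell line, so each difference below is between libraries and has no replicate check among them. No test was possible, and every interval covers counting error only.

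Chemokines are small secreted or membrane-bound proteins that direct migrating leukocytes through G protein-coupled receptors. CXCL1, CXCL2, CXCL3, CXCL5, CXCL6 and CXCL8 belong to the ELR group, which acts through CXCR2 (CXCL6 and CXCL8 also through CXCR1), attracts neutrophils and favours angiogenesis. Many genes of this group are known targets of NF-kB, and their short-lived mRNAs carry AU-rich elements.

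The 6 ELR genes lie together on chromosome 4 (GRCh38), between the start of CXCL8 and the start of CXCL2, over 359 kb that hold 20 annotated genes. In this order they are CXCL8 (chr4:73740519-73743716, plus strand), CXCL6 (chr4:73836640-73849064, plus), CXCL1 (chr4:73869393-73871308, plus), CXCL5 (chr4:73995642-73998677, minus), CXCL3 (chr4:74036589-74038807, minus) and CXCL2 (chr4:74097040-74099196, minus). The other 4 genes lie elsewhere, CCL20 at chr2:227805739-227817564 (plus), CX3CL1 at chr16:57372477-57385044 (plus), CCL2 at chr17:34255274-34257208 (plus) and CXCL16 at chr17:4733533-4739928 (minus).

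Promoter sequences, 250 bases before to 50 after the transcription start, were present in the RefSeq table (GRCh38.p14) for 7 of the 10 genes, and those of CXCL16, CCL2 and CX3CL1 are not shown. The letters GGNNNTTCC, a loose form of the NF-kB site, occurred on either strand in 7 of the 7 windows, against 20.1% of all 35116 windows of this length. The match farthest upstream in each gene is printed in 30 bases on the strand of the gene, 5′ to 3′, with the match in capitals, so that the sites of genes with unlike counts can be read side by side.
CXCL1: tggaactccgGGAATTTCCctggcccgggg
CXCL2: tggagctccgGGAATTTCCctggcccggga
CXCL3: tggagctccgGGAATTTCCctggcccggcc
CXCL5: atgagttcagGGAATTTCCccagcatccca
CXCL6: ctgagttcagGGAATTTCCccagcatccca
CXCL8: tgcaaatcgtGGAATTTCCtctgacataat
CCL20: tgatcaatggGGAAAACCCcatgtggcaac

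The match was the same 9 bases in the 6 ELR genes, where it began between positions -91 and -77 from the start. Its flanks fell into 3 kinds, one shared by CXCL1, CXCL2 and CXCL3, another by CXCL5 and CXCL6, and that of CXCL8. The CCL20 match, beginning at position -79, read GGNNNTTCC on the minus strand. The 30 bases lie at chr4:73869305-73869334 for CXCL1, chr4:74099253-74099282 for CXCL2, chr4:74038748-74038777 for CXCL3, chr4:73998748-73998777 for CXCL5, chr4:73836579-73836608 for CXCL6, chr4:73740468-73740497 for CXCL8 and chr2:227813753-227813782 for CCL20. Those of CXCL3 are also part of an annotated exon of a longer CXCL3 transcript. The longest run of identical bases between windows was 42 for CXCL1 and CXCL2 and 45 for CXCL5 and CXCL6, but 9 for CXCL8 and CXCL1. A match describes letters only, and no binding was measured.

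The upstream sequence is given at length for CXCL1, which had the most counts of the 10 genes after irradiation, and for CXCL8, which differed most between the irradiated libraries. That of CXCL1 covers positions -250 to -1 (chr4:73869143-73869392, plus strand), and that of CXCL8 covers positions -250 to -51 (chr4:73740319-73740518, plus strand). Capitals mark GGNNNTTCC, which CXCL1 held a further time at positions -53 to -45.
CXCL1: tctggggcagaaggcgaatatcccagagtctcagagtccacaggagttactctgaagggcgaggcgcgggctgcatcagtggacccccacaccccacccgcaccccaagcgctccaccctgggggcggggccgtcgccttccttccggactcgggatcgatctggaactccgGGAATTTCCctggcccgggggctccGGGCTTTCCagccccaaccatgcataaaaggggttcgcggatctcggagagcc
CXCL8: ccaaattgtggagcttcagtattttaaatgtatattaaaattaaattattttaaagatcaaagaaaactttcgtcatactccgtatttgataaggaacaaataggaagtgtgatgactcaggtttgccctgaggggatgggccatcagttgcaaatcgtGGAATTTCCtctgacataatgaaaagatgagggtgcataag

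The AP-1 letters TGANTCA, searched on both strands, occurred in CXCL8 alone of the 7 windows, at positions -137 to -131, and in 7.71% of all windows. TATAAA occurred in the windows of CXCL8 and CCL20 and in 11.5% of all windows. The AU-rich pentamer ATTTA, counted in the 3′ UTR of the canonical transcript, separated the genes further. CXCL2 had 14.0 copies per kb, CXCL3 10.4, CXCL1 7.77, CXCL8 7.19, CCL20 6.34, CXCL5 5.51 and CXCL6 5.36, against a median of 1.67 over 18175 genes. CCL2 had 2.66 copies per kb, and CXCL16 and CX3CL1, with 1.03 and 0.994, were below that median.

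Sequencing depth was 41811165 counts for Ctrl, 35959265 for RT and 35424086 for RT + shHDAC6, and values below follow this order. Levels are counts relative to the TMM-scaled total of the library (scaled CPM), and each log2 ratio of levels is followed by its 95% interval. HDAC6 itself, with 3098, 2383 and 2170 counts, differed by -0.20 (-0.28 to -0.11) between RT + shHDAC6 and RT. Its level in RT + shHDAC6 was thus 87.2% of that in RT. The paper reports lower HDAC6 mRNA by qPCR and lower HDAC6 protein by Western blot in shHDAC6 T24 cells. It also reports that knockdown abolished the rise of HDAC6 protein after irradiation. The ratio of counts has no replicate check and does not measure protein. Of the 8 urothelial markers, UPK1B, KRT20, UPK3A and UPK2 had at most 3 counts in any library, and UPK1A had 18, 2 and 2. GATA3 had 2320, 1423 and 709 counts, PPARG 1298, 650 and 352, and KRT5 478, 257 and 345. GATA3 was called lower between RT + shHDAC6 and RT (-1.07). Of the 5 carcinoma epithelium markers, KRT18 had 7336, 8362 and 9048 counts and KRT7 3533, 3854 and 597, the latter called lower between RT + shHDAC6 and RT (-2.75). KRT8 had 1508, 796 and 1060 counts, KRT19 950, 441 and 602, and EPCAM 205, 116 and 172. The 18 markers of leukocytes, endothelium and fibroblasts summed to 12296, 6142 and 7785 counts (271, 183 and 222 scaled CPM), and none of them, including PECAM1 and the fibroblast gene DCN, was at 0 in any library. In bulk RNA, fewer cells of a type and less RNA per cell cannot be told apart. The libraries were of a cell line, and leukocytes, endothelium and fibroblasts are not part of it. Whether these counts came from T24 cells or from RNA of other cells was not tested.

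Together the 10 genes held 811, 1610 and 1477 counts. Levels between genes were compared as scaled CPM per kb of exon, over the union of all annotated exons of a gene. This union was 2219 bases for CXCL3, 5960 for CX3CL1 and 1935 for CCL2. Their canonical transcripts have 1075, 3285 and 741 bases, so the order of the genes can depend on the length used. CXCL1 was the highest of the 10 in each library, at 2.96, 19.4 and 15.5. CXCL16 (2.23) and CXCL2 (0.946) came next in Ctrl. Their counting intervals overlapped in RT (3.09 to 3.86 for CXCL16, 2.75 to 3.80 for CXCL2), so that their order there is not resolved. CXCL8, at 0.383, 0.841 and 1.70, took places 7, 5 and 4 in the order of the 10 genes. The CXCL8 interval overlapped those of CCL2, CXCL3, CX3CL1 and CCL20 in Ctrl and those of CXCL3 and CCL20 in RT, so that places 7 and 5 are not resolved. In RT + shHDAC6 (1.44 to 1.99) it lay above those of all these genes. There it overlapped that of CXCL16, so that place 4 is not resolved from the next higher one. CXCL5 and CXCL6 were the lowest in every library and are barely measured at this depth.

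**Figure D1:**
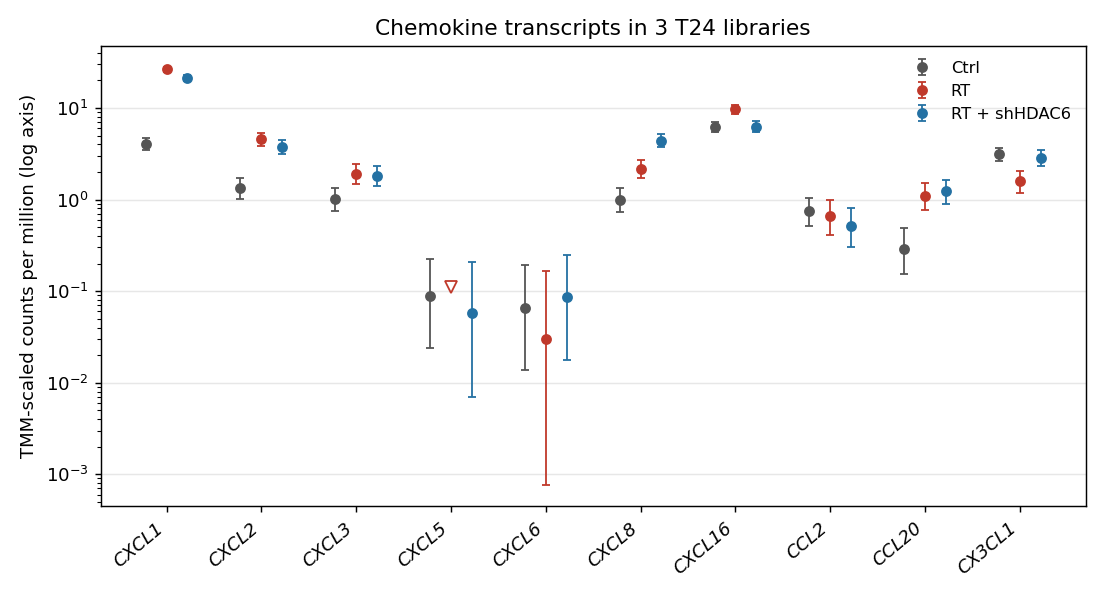
Level of each chemokine gene in the Ctrl, RT and RT + shHDAC6 libraries as scaled CPM on a log axis, with 1 point per library, bars for the 95% counting interval and an open triangle for the upper limit of CXCL5 in RT, which had 0 counts. CXCL1 lies at 4.04, 26.4 and 21.2, while CXCL8 is highest in RT + shHDAC6 at 4.40.

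Between RT and Ctrl, 4 of 8 genes were called higher and 0 lower. A call needs 10 counts or more in whichever library has more, a fold of 2 or more and an interval that leaves out 0, and CXCL5 and CXCL6 had too few counts to be judged. Over all 20267 genes compared, 4.15% were called higher and 6.15% lower. With library totals in place of TMM scaling the shares over all genes were 2.14% and 10.6%, and 3 of the 8 genes were higher and 1 lower. TMM scaling moves every log2 ratio of RT to Ctrl up by 0.22. The median log2 ratio of the 8 genes was 1.02, beside -0.062 over all genes.

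The called genes were CXCL1, CXCL2, CXCL8 and CCL20. Among the ELR genes, CXCL1, a neutrophil attractant, had 183, 884 and 741 counts. It was 6.53-fold higher in RT than in Ctrl, a log2 ratio of 2.71 (2.48 to 2.95). CXCL2, its close paralog, had 60, 152 and 133 counts and was 3.43-fold higher in RT than in Ctrl (1.78, 1.34 to 2.23). Both irradiated libraries were well above Ctrl for these genes. CXCL3, also a CXCR2 ligand, had 46, 64 and 64 counts, and its log2 ratio of 0.91 (0.34 to 1.49) left out 0 but was under the 2-fold limit. CXCL8 (interleukin-8) had 45, 73 and 154 counts and was 2.19-fold higher in RT than in Ctrl (1.13, 0.58 to 1.70). With library totals its log2 ratio was 0.92, and it was not called. The CXCL8 count in RT + shHDAC6 was above those of both other libraries. CXCL5 had 4, 0 and 2 counts and CXCL6 3, 1 and 3, and no fold of RT to Ctrl is given for them. The exact 95% upper limit for the CXCL5 count of 0 is 3.69 counts.

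CCL20, the ligand of CCR6 on lymphocytes and dendritic cells, had 13, 37 and 43 counts. It was 3.85-fold higher in RT than in Ctrl (log2 1.94, 1.0 to 2.98). CCL2, which attracts monocytes through CCR2, had 34, 22 and 18 counts. Its log2 ratio of -0.19 (-1.04 to 0.62) was not resolved at this depth.

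The transmembrane chemokines moved unlike each other. CXCL16, the ligand of CXCR6, had 282, 324 and 220 counts, and it was 1.55-fold higher in RT than in Ctrl (log2 0.64, 0.40 to 0.87), under the limit for a call. CX3CL1, the ligand of CX3CR1, had 141, 53 and 99 counts, and its level in RT was 50.8% of that in Ctrl (log2 -0.98, -1.46 to -0.51). It missed the 2-fold limit narrowly and was called lower with library totals, at -1.19.

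Between RT + shHDAC6 and RT, 1 of 8 genes was called higher and 0 lower, while 2.73% of 19013 genes were called higher and 3.69% lower. The called gene was CXCL8, which was 2.02-fold higher in RT + shHDAC6 than in RT (log2 1.01, 0.60 to 1.44), just past the 2-fold limit. CXCL1 stood at 80.3% of its RT level (-0.32, -0.46 to -0.17). The intervals of CXCL2 (-0.25, -0.60 to 0.091) and CXCL3 (-0.062, -0.58 to 0.46) included 0. CXCL8 was thus the ELR gene whose interval lay above 0, and CXCL1 the one whose interval lay below it. CXCL16 stood at 65.0% of its RT level (-0.62, -0.87 to -0.37). CX3CL1 was 1.79-fold higher in RT + shHDAC6 than in RT (0.84, 0.34 to 1.35). Neither transmembrane chemokine passed the 2-fold limit, and their intervals lay on opposite sides of 0. CCL20 (0.15, -0.51 to 0.83) and CCL2 (-0.35, -1.34 to 0.61) were not resolved. The median over the 8 genes was -0.16, beside -0.0032 over all genes. By qPCR with biological replicates, the paper reports that irradiation raised CXCL1 and CXCL16 mRNA. It reports that these increases were counteracted in irradiated shHDAC6 cells. That qPCR used a lower dose than the labels give for the libraries.

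Between RT + shHDAC6 and Ctrl, which differ in both irradiation and shRNA, 4 of 8 genes were called higher and 0 lower, beside 4.25% and 7.92% of 20374 genes (3.03% and 10.1% with library totals, where the count of 4 was the same). They were CXCL1, CXCL2, CXCL8 and CCL20. CXCL1 was 5.24-fold higher (log2 2.39, 2.16 to 2.63) and CXCL8 4.43-fold higher (2.15, 1.66 to 2.66). CCL20 was 4.28-fold higher (2.10, 1.18 to 3.12), and the log2 ratio of CXCL2 was 1.52 (1.07 to 1.99). CXCL16 (0.015, -0.25 to 0.27) and CX3CL1 (-0.14, -0.52 to 0.24) had intervals that included 0. The 3 comparisons share libraries, so their values are not independent of each other.

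**Figure D2:**
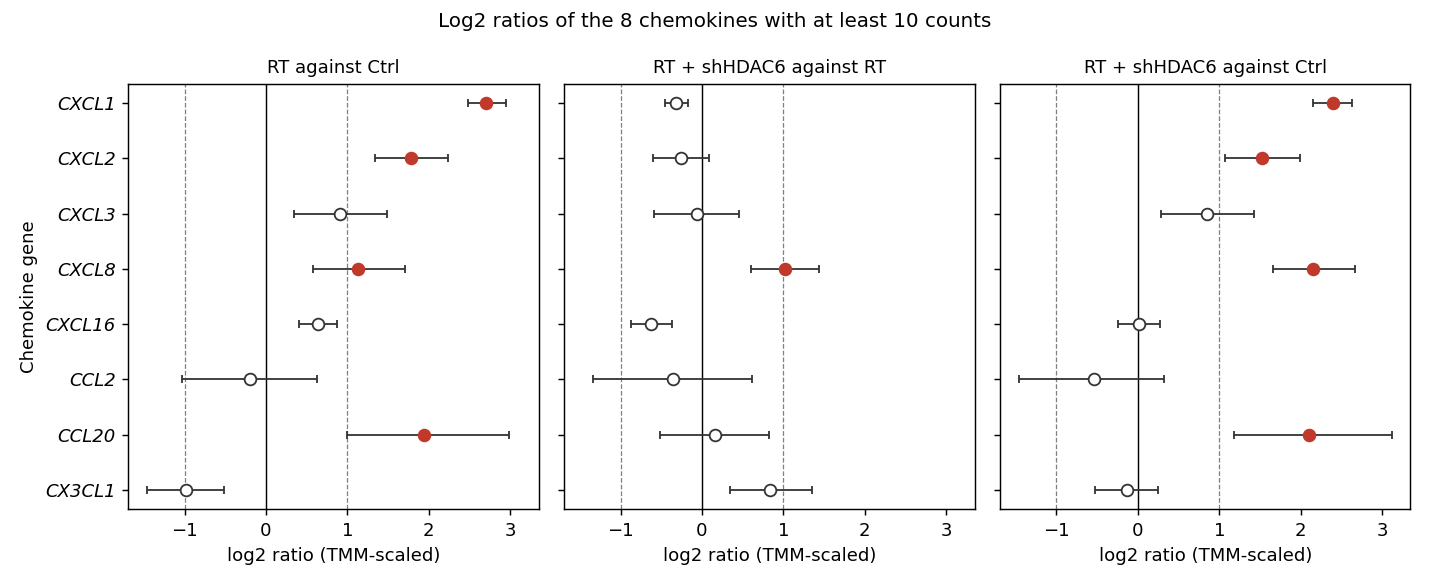
Log2 ratio of scaled CPM for each chemokine gene in the 3 comparisons, with bars for the 95% counting interval, filled points for calls and dashed lines at a 2-fold difference. CXCL8 is the filled point between the irradiated libraries, at 1.01, and CXCL1 is the highest point of RT against Ctrl, at 2.71.

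Ratios between genes of the same library do not depend on scaling. Per 100 counts of CXCL1, CXCL8 had 24.6 (17.3 to 34.2), 8.26 (6.41 to 10.5) and 20.8 (17.4 to 24.8) across the libraries. The RT library was therefore the low one, and its interval overlapped neither of the others. From RT to RT + shHDAC6 this ratio changed by 1.33 on the log2 scale (0.91 to 1.76, Wald). CXCL2 per 100 counts of CXCL1 was 32.8, 17.2 and 17.9, and CXCL3 was 25.1, 7.24 and 8.64, so that the irradiated libraries lay near each other for these ligands. CX3CL1 per 100 counts of CXCL16 was 50.0, 16.4 and 45.0.

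As a share of the summed counts of the 10 genes, CXCL1 made up 22.6% (19.7 to 25.6, exact binomial interval), 54.9% (52.4 to 57.4) and 50.2% (47.6 to 52.8). CXCL16 held the largest share in Ctrl at 34.8%, then 20.1% and 14.9% after irradiation without and with the shRNA. CXCL8 made up 5.55% (4.08 to 7.35), 4.53% (3.57 to 5.67) and 10.4% (8.91 to 12.1). Its share was thus set apart in RT + shHDAC6, beyond counting error.

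**Figure D3:**
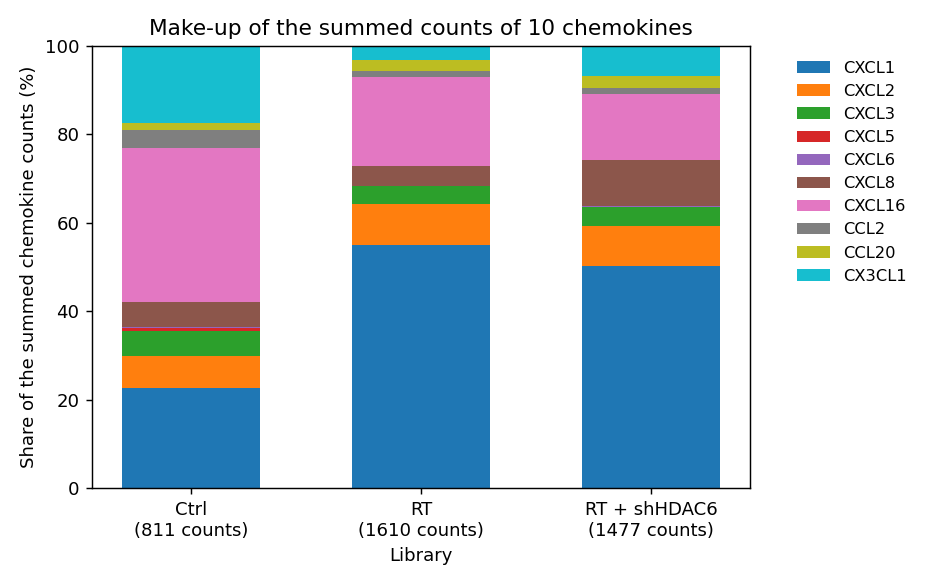
Share of each chemokine gene in the summed counts of the 10 genes, in percent, for the Ctrl, RT and RT + shHDAC6 libraries, which hold 811, 1610 and 1477 such counts. CXCL1 grows from 22.6% in Ctrl to 54.9% in RT, and CXCL8 is largest in RT + shHDAC6 at 10.4%.

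The markers of leukocytes, endothelium and fibroblasts moved with some of these values. Of the 17 such markers compared between RT and Ctrl, 16 had a log2 ratio below 0, and their sum changed by -0.57 (-0.61 to -0.52). Between RT + shHDAC6 and RT, 13 of 16 were above 0 and the sum changed by 0.28 (0.23 to 0.33). Over all genes compared, 45.8% were above 0 in RT against Ctrl and 49.6% in RT + shHDAC6 against RT. The carcinoma epithelium markers KRT8 (-0.49, then 0.35), KRT19 (-0.67, 0.39) and EPCAM (-0.39, 0.51) took the same course. KRT18 (0.62, 0.052) and KRT7 (0.56, -2.75) did not. Of the mesenchymal markers, VIM (121716, 74147 and 95822 counts, -0.28, then 0.31) and FN1 (-0.22, 0.071) took this course, while CDH2 (0.78, -1.04) did not. CX3CL1 moved in the same directions as the marker sum. Per 1000 marker counts, CX3CL1 had 11.5, 8.63 and 12.7, and the log2 change from Ctrl to RT was -0.41 (-0.89 to 0.055), an interval that includes 0. From RT to RT + shHDAC6 the change was 0.56 (0.064 to 1.07), an interval that leaves out 0. CXCL1 moved the other way, with 14.9, 144 and 95.2 per 1000 marker counts. CXCL8 had 3.66, 11.9 and 19.8, and its change from RT to RT + shHDAC6 was 0.73 (0.32 to 1.16). Most of the marker counts were of fibroblast genes (10686, 5367 and 6751), and the leukocyte markers summed to 472, 244 and 294. Between RT + shHDAC6 and RT, 2 of 7 leukocyte markers were called higher, beside 2.73% of all genes. They were ITGAM (29, 21 and 51 counts, log2 1.22) and S100A9 (45, 15 and 34, 1.12), beside 1.01 for CXCL8. Of the 7, 5 were above 0 and 2 below, PTPRC (120, 66 and 57, -0.27) and LYZ (198, 89 and 88, -0.078), which had the most counts. The leukocyte sum changed by 0.21 (-0.043 to 0.46), an interval that includes 0. The part of these markers in the results was not tested.

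Of 32 other chemokine ligands, 13 could be compared between RT and Ctrl, and 12 had a log2 ratio below 0. Of the 13, 0 were called higher and 1 lower (CCL4, with 11 counts in Ctrl and 1 in RT), beside 4.15% and 6.15% of all genes. CXCL9, CXCL10, CXCL12, CXCL13 and CXCL14 were set against the markers after their values had been seen. CXCL13, a B cell attractant, had 875, 375 and 517 counts, or 71.2, 61.1 and 66.4 per 1000 marker counts. CXCL10, an interferon-induced ligand, had 53, 28 and 36 counts, or 4.31, 4.56 and 4.62 per 1000. CXCL9, CXCL12 and CXCL14 had 10.2, 10.3 and 14.3, then 23.7, 21.7 and 20.9, then 14.3, 13.2 and 14.9 per 1000. Against the markers, CXCL13 changed by -0.22 (-0.40 to -0.045) from Ctrl to RT. CXCL9 changed by 0.48 (0.016 to 0.94) from RT to RT + shHDAC6, and both intervals leave out 0. The 1 other ligand above 0 in RT against Ctrl was CCL5 (70, 53 and 43 counts, log2 0.034), which was not set against the markers. The chosen ligands kept a nearer ratio to the markers than CXCL1 did. They were picked with their values known, so this describes them alone.

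**Figure D4:**
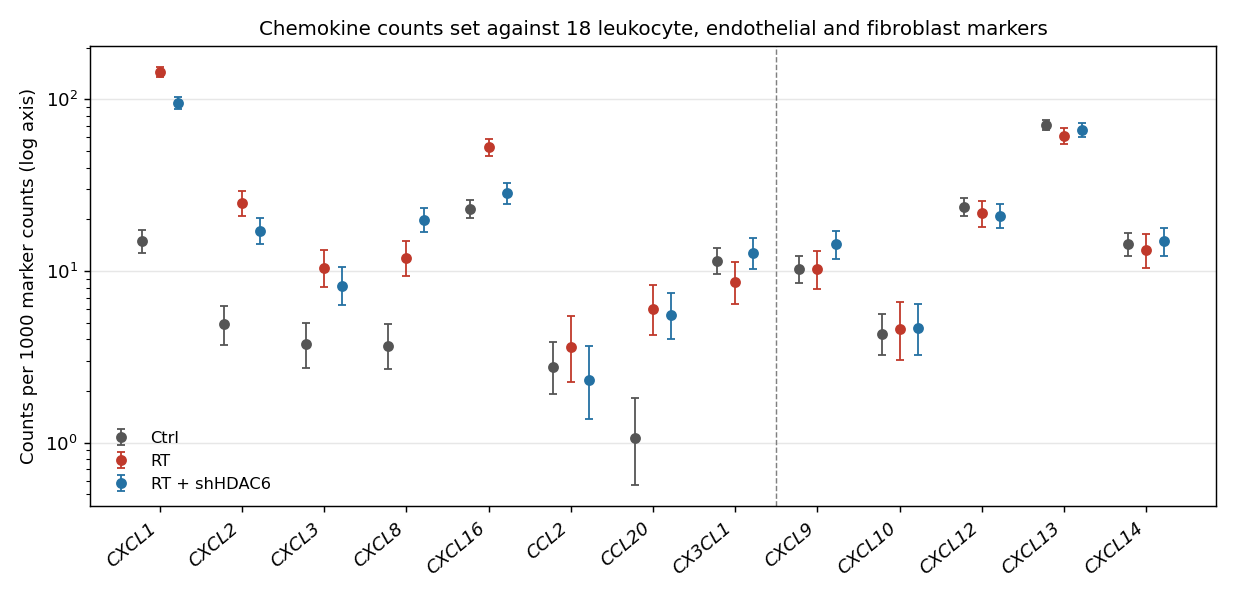
Counts of chemokine genes per 1000 counts of leukocyte, endothelial and fibroblast markers, on a log axis, in the Ctrl, RT and RT + shHDAC6 libraries, with 95% counting intervals and a dashed line before 5 other ligands; CXCL5 and CXCL6 are left out. CXCL1 goes from 14.9 to 144 and 95.2, while CXCL10 stays between 4.31 and 4.62.

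The receptors of the members were chosen for naming by their ligands, after their values were seen, and most were near or at 0. CXCR1 had 1, 0 and 0 counts and CXCR2 3, 0 and 0, which are at or under the floor of 3 counts. CXCR6, the CXCL16 receptor, had 2, 1 and 2, and CCR6, the CCL20 receptor, 0, 1 and 0. CCR2, the CCL2 receptor, had 9, 1 and 7. CX3CR1, the CX3CL1 receptor, had 25, 15 and 16 counts. Of 23 receptor genes, 10 could be compared between RT and Ctrl, with 0 called higher and 2 lower, beside 4.15% and 6.15% of all genes. The lower ones were the atypical receptor genes ACKR1 (29, 4 and 12 counts) and ACKR3 (39, 12 and 19). Between RT + shHDAC6 and RT, 0 of 9 were higher and 1 was lower, beside 2.73% and 3.69% of all genes. It was the atypical receptor gene CCRL2 (52, 47 and 21 counts, log2 -1.22).

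Among 9 genes for shedding, cleavage and presentation of chemokines, 1 was called higher and 0 lower in RT than in Ctrl, beside 4.15% and 6.15% of all genes. Between the irradiated libraries 0 were called, beside 2.73% higher and 3.69% lower of all genes. The called gene was SDC1, a heparan sulphate proteoglycan of the cell surface, with 4216, 6889 and 4334 counts (log2 1.14 for RT to Ctrl, -0.73 for RT + shHDAC6 to RT). By qPCR, the paper reports that irradiation raised SDC1 mRNA and that this rise was counteracted in irradiated shHDAC6 cells. The sheddase ADAM10 had 13147, 13028 and 11719 counts (0.42 and -0.21), and ADAM17 had 5307, 4201 and 3486 (0.10 and -0.33).

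Of 19 NF-kB and AP-1 genes, 1 was called higher and 2 lower in RT than in Ctrl, beside 4.15% and 6.15% of all genes. Between the irradiated libraries 0 were called, beside 2.73% higher and 3.69% lower of all genes. The higher gene was the AP-1 subunit FOSL1 (4843, 10288 and 13416 counts, log2 1.52), and the lower ones were BCL3, an NF-kB cofactor (708, 220 and 151, -1.25), and the AP-1 subunit JUND (1940, 685 and 770, -1.07). In RT against Ctrl, 13 of the 19 had a log2 ratio above 0 and 6 below. The NF-kB subunit RELA had 3611, 2779 and 2753 counts (0.06 for RT to Ctrl). RELB had 290, 360 and 445 counts (0.75, 0.52 to 0.98) and NFKBIZ 333, 361 and 544 (0.55, 0.33 to 0.77), both uncalled there. Between RT + shHDAC6 and Ctrl, 2 were called higher and 1 lower, beside 4.25% and 7.92% of all genes. They were FOSL1 (1.84) and NFKBIZ (1.08), and BCL3 (-1.86). NFKBIA, the NF-kB inhibitor that NF-kB itself induces, had 1671, 1300 and 1738 counts (0.07, then 0.36 for RT + shHDAC6 to RT).

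Of 14 listed genes for cytokines and cytokine receptors, 11 could be compared between RT and Ctrl. Of these, 1 was called higher and 0 lower, beside 4.15% and 6.15% of all genes. The called gene was CSF1, the macrophage growth factor, with 3329, 10791 and 9374 counts (log2 2.13). Between RT + shHDAC6 and RT, 2 of 10 were called higher and 0 lower, beside 2.73% and 3.69% of all genes. CSF3, the granulocyte growth factor, had 19, 19 and 189 counts (3.25), and IL1B, an inducer of CXCL8 in many cells, had 32, 17 and 64 (1.85). The IL1B receptor gene IL1R1 had 552, 271 and 173 counts (-0.71, under the limit for a call). The inflammatory cytokine genes IL6 and TNF, also named after their values were seen, had 10, 12 and 6 and 8, 2 and 2 counts. Of 7 genes of AU-rich mRNA decay, 0 were called in any comparison, and the decay factor ZFP36 had 836, 409 and 547 counts.

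The genes closest in pattern to CXCL1 and CXCL8 were sought among 12733 genes with at least 100 counts, by Euclidean distance over the log2 ratios of the 3 libraries. For CXCL1 they were CGB5 (distance 0.26), DKK1 (0.36), PSG4 (0.43), ENSG00000278341 (0.48) and CSF1 (0.58). DKK1, a secreted Wnt inhibitor, had 65, 396 and 366 counts. For CXCL8 they were ELFN1-AS1 (0.18), PLPP3 (0.25), AOX1 (0.29), LRRC8E (0.30) and LINC01836 (0.33), and PLPP3, a lipid phosphatase gene, had 259, 365 and 697 counts. With 3 libraries such likeness is a description only.

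Sequence shared between genes bears on the ELR counts. Of the 50-base stretches of CXCL1, CXCL2 and CXCL3, 5.33%, 10.1% and 5.26% also occurred in transcripts of another gene, chiefly of one another, and no 100-base stretch of any of the 10 genes did. How far reads were split among these 3 genes was not measured. CXCL8, CXCL6, CCL2, CCL20 and CX3CL1 shared none at 50 bases. The exons of CXCL16 overlapped genes on the opposite strand over 6.16% of their length, and those of CXCL5 over 17.3%. The exons of CXCL6 overlapped the pseudogene PPBPP1 on the same strand over 4.61%, and PPBPP1 had 0 counts in each library. The rest of the 10 genes had no exon overlap.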

How the data were processed

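Gene counts were deposited by the authors as whole numbers, made by assigning STAR alignments to GENCODE genes with featureCounts. The submitters' processing notes name cutadapt, STAR 2.6.1a and GRCh38, and the labels a stranded mRNA kit. The strand setting and the handling of reads with several matches are not given in the sources used here. Symbols were matched for 57799 of 58381 genes. Counts were scaled with TMM factors (edgeR 4.0.16, R 4.3.3), and DESeq2 1.42.0 size factors served as an alternative. Each log2 ratio has an exact 95% interval from the binomial split of the counts of both libraries, with 0 set to 0.5 counts, and the calculation was tested on simulated data. A call needed a fold of 2, an interval without 0 and 10 counts in the higher library. This rule replaced the NOISeq calls of the study, whose noise without replicates is drawn from the libraries themselves. Named genes were the 10 members, genes of the lists with at least 100 counts in a library or a call, and the 5 genes nearest CXCL1 and CXCL8. Outside this rule, cell type markers, CXCL10, CCL5, the members' receptors, IL6 and TNF were named after their values were seen. The members and the lists were chosen with earlier results of these data known. Positions came from GENCODE 44, promoters from RefSeq.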

Additional observations from a re-analysis of the deposited data

How the results depend on the processing

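Alternatives were other scalings (library totals, upper quartile, DESeq2 size factors), another value for a count of 0, a fold of 1.5, no minimum count and a minimum of 100 counts. All 75 values of single genes under the other scalings stayed within the counting interval, and 3 changed sign without being called: CXCL3 in RT + shHDAC6 against RT (0.022 with library totals) and CXCL16 in RT + shHDAC6 against Ctrl (-0.12 with library totals, -0.014 with the upper quartile). In RT against Ctrl, 1 gene, CX3CL1, was called lower with library totals, with the upper quartile and with a fold of 1.5, in place of 0, and a minimum of 100 counts left 4 genes, of which 2 were called higher, in place of 4 of 8. A fold of 1.5 gave 6 higher. The other value for 0 changed no gene's ratio, since no gene given a ratio had a count of 0. In RT + shHDAC6 against RT, a fold of 1.5 gave 2 higher and 1 lower. With no minimum count, which adds CXCL5 and CXCL6, the median was 0.046 in RT + shHDAC6 against RT and 0.61 in RT + shHDAC6 against Ctrl. Over all genes, a fold of 1.5 gave 12.2% higher and 13.0% lower in RT against Ctrl, 5.09% and 6.58% in RT + shHDAC6 against RT, and 11.3% and 13.8% in RT + shHDAC6 against Ctrl. With at least 100 counts these shares were 4.24% and 2.19%, 0.995% and 2.15%, and 3.56% and 4.42%. Depth limits CXCL5, CXCL6, CCL2 and CCL20 most. No paired analysis was possible because each condition had 1 library. Leaving out a library was not possible either.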
